A study of Mus musculus with 6 samples.

Results

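The genes described here build, dismantle and link actin filaments in mouse liver, or are transcribed under serum response factor (SRF), a transcription factor whose coactivators sense the actin pool. They are 46 genes chosen by name from textbook roles, with earlier results of these data known. All 46 were found among the 22180 genes tested. Each gene is given by 1 row of the array table, the row with the highest mean over all arrays among rows annotated to that gene alone. RNA came from whole liver of C57BL/6 mice aged 8 to 9 months, either wild type or Pfn2-/-, which lack profilin 2, an actin monomer-binding protein. There were 3 Affymetrix arrays per genotype, and replicates 1, 2 and 3 of each genotype were 9, 8.5 and 8 months old. The labels call the replicates independent biological replicas. The sources used here do not give how the Pfn2 allele was made, in which cells it is lost, or the sex of the animals. Whole liver mixes hepatocytes with all other cells of the organ, so a lower value can mean fewer cells of a type or less RNA per cell, and these cannot be told apart.

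Actin exists in cells as free monomers and as filaments, and filaments turn over as monomers join at one end and leave at the other. Profilins feed monomers to growing ends, cofilins sever and shorten old filaments, thymosins hold monomers in reserve, and capping proteins stop growth. Free monomers also bind the coactivators Mrtfa and Mrtfb and keep them away from SRF, so that a fall in free actin lets SRF switch on actin, contractile and adhesion genes. In liver the strongest contractile expression belongs to smooth muscle of vessels and to activated stellate cells, while hepatocytes use filaments beneath the membrane and around bile canaliculi.

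Over the deposited log2 values, arrays of the same genotype correlated at 0.979 to 0.988, and arrays of different genotypes at 0.980 to 0.986. The hepatocyte gene Alb, which encodes albumin, lay at 12.93 to 13.00 in all 6 arrays. The Pfn2 row itself was dim and did not separate the genotypes, at 4.02, 3.85 and 4.09 in wild type and 3.88, 3.81 and 3.93 in the knockout, and the sources used here do not say which part of the transcript it covers. It therefore checks no genotype label. Acute-phase genes, a list of 16 of which 15 were measured, differed between knockout arrays. Their mean, each gene centred on its own average, was 0.50, -0.39 and 0.81 in knockout replicates 1, 2 and 3 and -0.34 to -0.28 in wild type. A heat shock list of 10 measured genes averaged 0.69 in knockout replicate 3 and -0.19 to -0.01 in the other 5 arrays. Pfn2-/- minus wild type was positive in 15 of 15 acute-phase genes and 9 of 10 heat shock genes, beside 49.3% of all genes. All knockout values lay above all wild-type values in 2 of the 15 and 1 of the 10 (13.3% and 10%), beside 5.09% of all genes. Wild-type replicate 2 was highest for 8 Kupffer cell and macrophage markers, with a centred mean of 0.44 beside -0.26 to 0.01 in the other 5 arrays. It was also highest for 10 lymphocyte markers, at 0.47 beside -0.19 to 0.03. The part of these states and markers in the results below was not tested.

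Across the 46 genes the genotypes differed little, and none passed the test between them. By limma with Benjamini-Hochberg adjustment over all genes, 0 of 46 had an adjusted p under 0.05, and the same rule called 0% of all 22180 genes. All differences below are Pfn2-/- minus wild type on the log2 scale, with the standard error (SE) or the 95% confidence interval of that fit. Of the 46 genes, 31 had a negative difference (67.4%, beside 50.7% of all genes) and 15 a positive one (32.6%, beside 49.3%). Their median difference was -0.05, beside 0 over all genes tested. Averaged over the 46 genes, each centred on its mean over 6 arrays, the wild-type arrays lay at 0.03, 0.07 and 0.02 and the knockout arrays at -0.02, -0.07 and -0.03. Single arrays moved this median between -0.10 (without wild-type replicate 1) and -0.02 (without wild-type replicate 2). The absolute difference was under 0.2 in 35 genes, or 76.1% of them, beside 77.8% of all genes.

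At an unadjusted p under 0.05, a rule used only to describe, 1 of the 46 genes was higher in the knockout (Ccn1), where 2.67% of all genes were. By the same rule 5 of 46 were lower (Acta2, Flna, Actn4, Myl9 and Ccn2), a share of 10.9%, where 2.62% of all genes were. The count of lower genes rests on single arrays. Leaving out a wild-type array gave 0 (replicate 1), 1 (replicate 2) or 6 (replicate 3), and leaving out a knockout array gave 4, 2 or 1 in the same order. Scaling and the variance model also ended single calls. Actn4 missed the rule under median centring, repeated quantile normalization, robust eBayes and a replicate block, and Myl9 missed it under repeated quantile normalization and cyclic loess. The 3 knockout values lay entirely above the 3 wild-type values in 5 genes (Cfl1, Rdx, Vcl, Zyx and Ccn1), or 10.9%, where 5.09% of all genes did so. They lay entirely below in 6 genes (Acta2, Cap1, Wdr1, Tpm1, Actn4 and Myl9), or 13.0%, where 4.76% of all genes did so. Of the 46 genes, 40 lay above the median of all gene means, and bright genes as a whole leaned lower. Among the 11088 genes above that median, 278 were higher and 404 lower by the unadjusted rule. Their groups lay apart above in 4.39% and below in 6.30%, beside 12.5% and 15% of the 40. The median difference of these 11088 genes was -0.023.

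**Figure D1:**
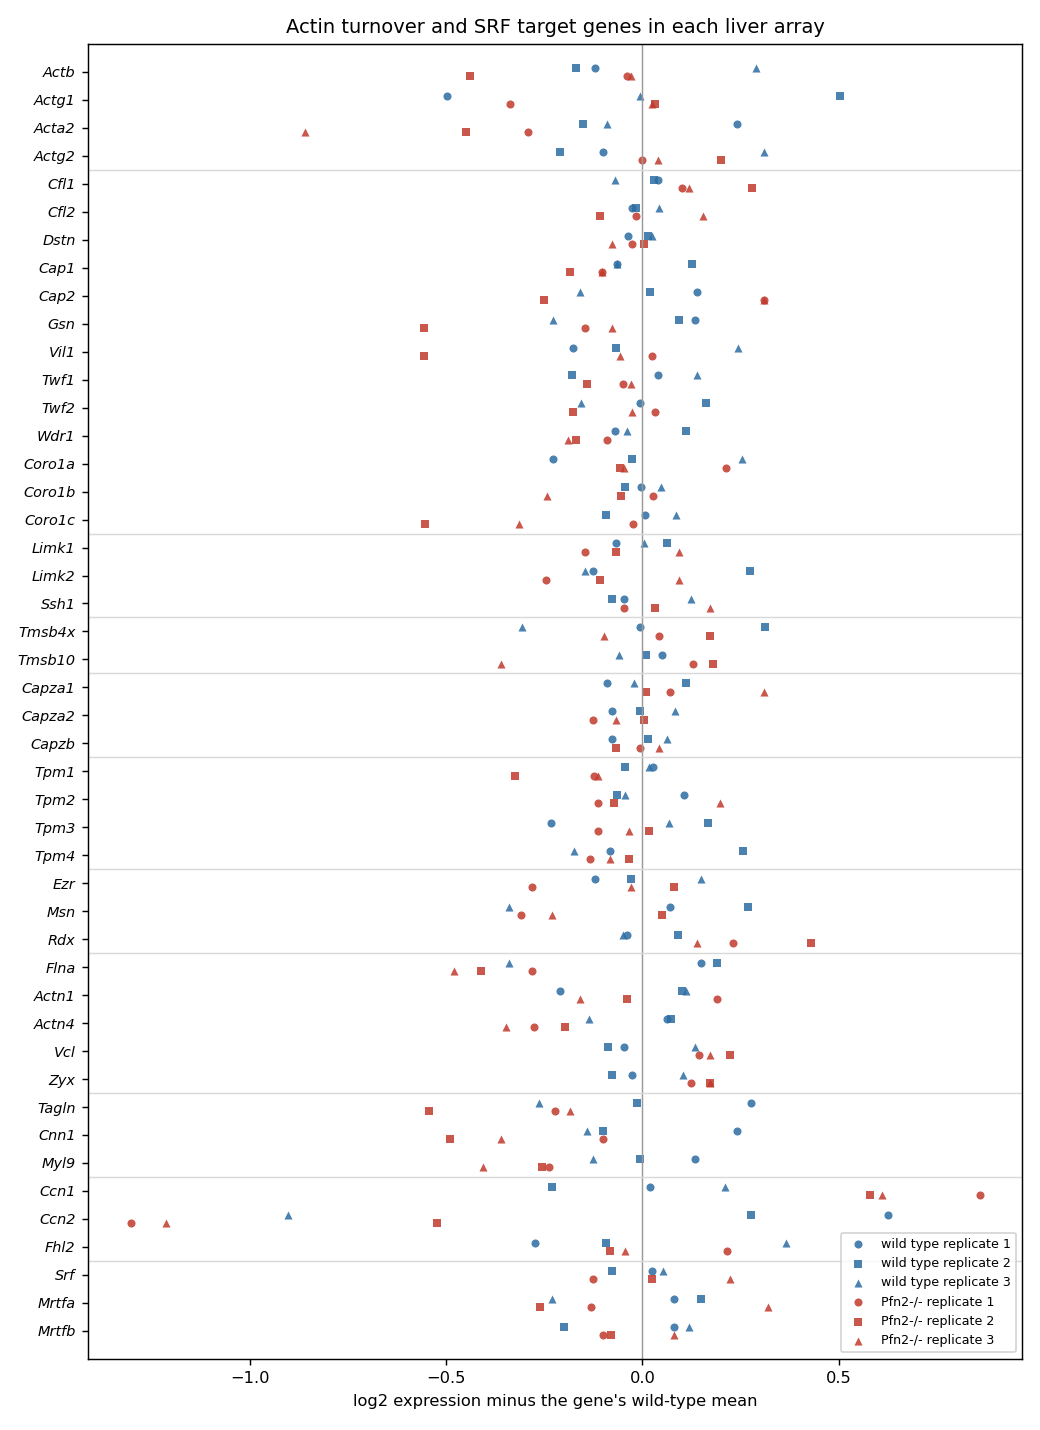
Log2 expression of each of the 46 genes in each of 6 liver arrays, minus that gene's wild-type mean (x axis); points are arrays, blue for wild type and red for Pfn2-/-, with circle, square and triangle for replicates 1, 2 and 3, and grey lines part the role groups. Most genes have intermingled colours near 0, while red points lie to the right for Ccn1 (0.58 or more above its wild-type mean) and to the left for Acta2.

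The arrays limited how large a difference could have gone unseen. The 95% confidence interval lay within 2-fold either way, that is within -1 to 1, for 44 of 46 genes, the exceptions being Ccn1 and Ccn2. It lay within 1.5-fold either way for 36 genes. The median half-width of the interval was 0.31, beside 0.32 over all genes. The spread between arrays of a genotype (pooled SD) ranged from 0.04 for Dstn to 0.64 for Ccn2. In brightness, 40 of the 46 rows lay above 4.72, the median of all gene means, and 6 lay between that and the lower quartile of 3.80. Brightness depends on a row's probes, so values of different genes are not ranked against each other here.

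**Figure D2:**
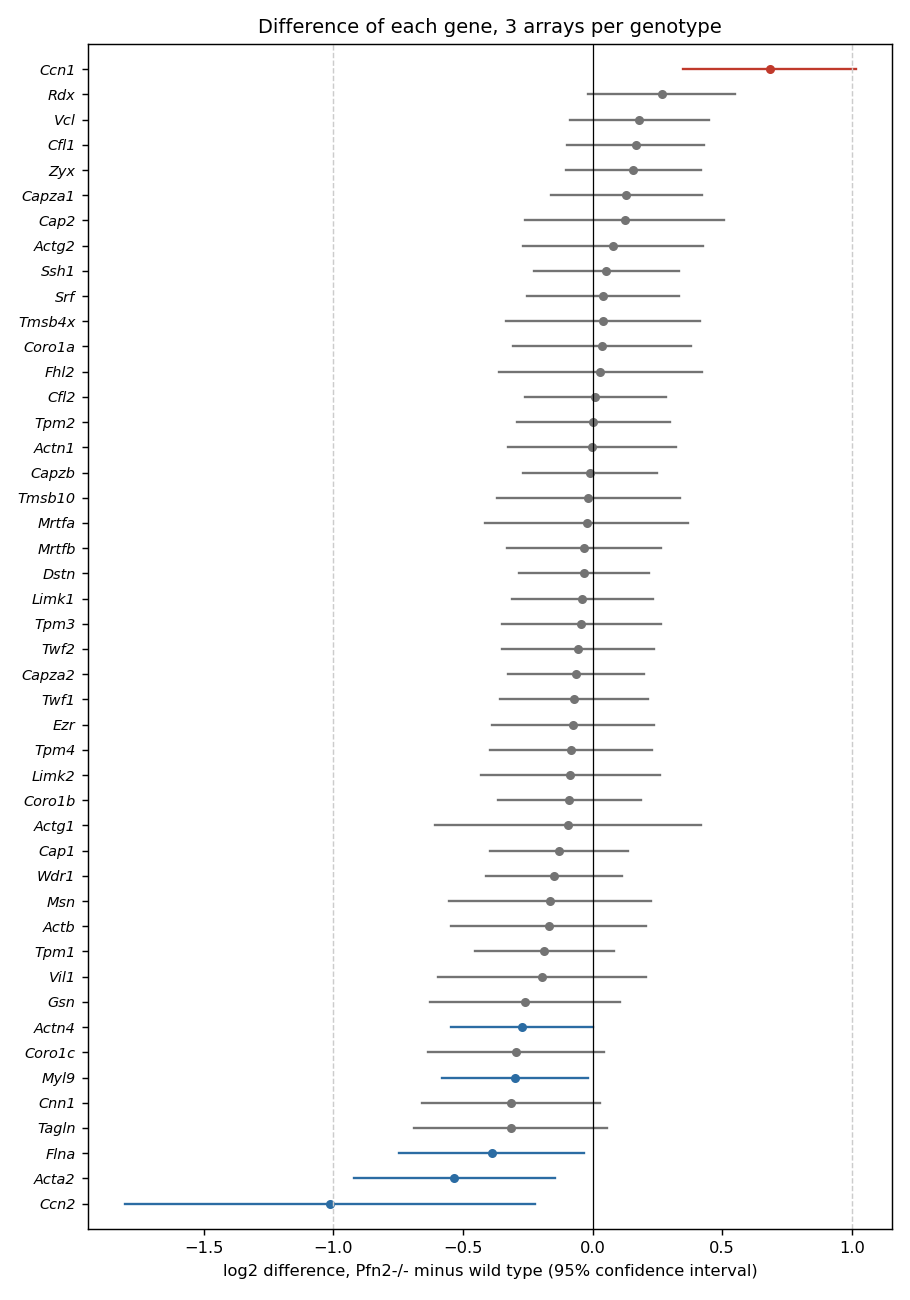
Log2 difference, Pfn2-/- minus wild type, of each of the 46 genes with its 95% confidence interval from the limma fit (3 arrays per genotype), ordered by difference; dashed lines mark -1 and 1. Intervals that exclude 0 are coloured: 5 below 0 (blue) and 1 above (red), before any adjustment, and Ccn2 has the widest at -1.81 to -0.22.

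Among the 4 actin genes, the smooth muscle form Acta2 differed most. Acta2 read 7.54, 7.15 and 7.21 in wild-type replicates 1, 2 and 3 and 7.01, 6.85 and 6.44 in the knockout. Every knockout array lay below every wild-type array, and knockout replicate 3 lay lowest. The means were 7.30 ± 0.21 (SD, n = 3) and 6.77 ± 0.29, which differ by -0.53 (SE 0.17), or 1.45-fold. The 95% confidence interval was -0.92 to -0.15 and the adjusted p by limma 0.854. Leaving out single arrays gave -0.66 to -0.37.

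The cytoplasmic actins, which every cell uses, overlapped between the genotypes. Actb, the beta form, read 7.71, 7.66 and 8.12 in wild type and 7.79, 7.39 and 7.80 in the knockout, with means -0.17 apart (SE 0.17). The highest and the lowest of these values were wild-type replicate 3 and knockout replicate 2. Actg1, the gamma form, read 7.10, 8.10 and 7.59 against 7.26, 7.63 and 7.62, a difference of -0.09 (SE 0.23), and its wild-type values spanned the knockout values. Actg1 has 6 rows, of which the brightest pair held identical values, and their differences ranged from -0.20 to 0.06. Actg2, the enteric smooth muscle form, was dim at 3.58 to 4.10 in wild type and 3.79 to 3.99 in the knockout. Actins are near-identical in coding sequence and have many processed copies in the genome, so their rows are uncertain.

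The machinery that shortens filaments held 13 genes, of which 0 had an unadjusted p under 0.05. Cfl1, the cofilin of non-muscle cells, read 7.57, 7.56 and 7.46 in wild type and 7.63, 7.81 and 7.65 in the knockout. All knockout values lay above all wild-type values, by a difference of 0.17 (SE 0.12, adjusted p = 0.954). Cfl2, the muscle cofilin, differed by 0.01 (SE 0.12) and the related severing factor Dstn by -0.03 (SE 0.11). Dstn was the steadiest of the 46 genes, at 9.31 to 9.37 in wild type and 9.27 to 9.35 in the knockout.

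Wdr1, which speeds cofilin severing, read 7.56, 7.74 and 7.59 in wild type and 7.54, 7.46 and 7.44 in the knockout. Cap1, a cyclase-associated protein that recycles monomers, read 8.17, 8.36 and 8.17 against 8.13, 8.05 and 8.13. In both genes the knockout values lay below the wild-type values without overlap, though the gap was only 0.02 for Wdr1 and 0.04 for Cap1. The differences were -0.15 (SE 0.12) for Wdr1 and -0.13 (SE 0.12) for Cap1, each close to its standard error. Cap2, the paralog of muscle, was dim and differed by 0.12 (SE 0.17).

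Coro1c, a coronin of broad expression, read 6.45, 6.35 and 6.53 in wild type and 6.42, 5.89 and 6.13 in the knockout. Knockout replicate 1 lay inside the wild-type range and the other 2 knockout arrays below it, a difference of -0.30 (SE 0.15, adjusted p = 0.941). Its second, dimmer row differed by 0.18, so the 2 rows of this gene disagree in sign. Coro1b differed by -0.09 (SE 0.12) and Coro1a, the leukocyte coronin, by 0.04 (SE 0.15). Gsn, which encodes the calcium-dependent severing protein gelsolin, read 5.81, 5.77 and 5.45 in wild type and 5.53, 5.12 and 5.60 in the knockout. The groups overlapped, with knockout replicate 2 lowest, and the difference was -0.26 (SE 0.16), or -0.11 without that array. Knockout replicate 2 was also lowest for Vil1, the microvillus protein villin (3.47 against 3.85 to 4.27 in the other 5 arrays), which differed by -0.20 (SE 0.18), or -0.017 without that array. The twinfilins Twf1 and Twf2, which bind monomers and cap ends, differed by -0.07 (SE 0.13) and -0.06 (SE 0.13).

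The genes that set cofilin activity and those that hold or cap actin lay close to 0. Limk1 and Limk2 encode kinases that inactivate cofilin, and Ssh1 a phosphatase that reactivates it. Limk2 read 4.52, 4.92 and 4.50 in wild type and 4.40, 4.54 and 4.74 in the knockout, and Ssh1 6.04, 6.01 and 6.21 against 6.04, 6.12 and 6.26. Both overlapped, and the differences of Limk1, Limk2 and Ssh1 were -0.04 (SE 0.12), -0.09 (SE 0.15) and 0.05 (SE 0.12). The thymosin genes Tmsb4x and Tmsb10, whose small products sequester monomers, differed by 0.04 (SE 0.17) and -0.02 (SE 0.16). Tmsb4x read 6.66, 6.98 and 6.36 in wild type and 6.71, 6.84 and 6.57 in the knockout. Tmsb10 read 5.16, 5.12 and 5.05 against 5.24, 5.29 and 4.75. In both genes the groups overlapped, and the third replicate of each genotype was the lowest of its group. Among the capping protein subunits, Capza1 read 7.27, 7.47 and 7.34 in wild type and 7.43, 7.37 and 7.67 in the knockout, and Capza2 7.37, 7.44 and 7.53 against 7.32, 7.45 and 7.38. Both overlapped, with knockout replicate 3 highest for Capza1. Capza1, Capza2 and Capzb differed by 0.13 (SE 0.13), -0.06 (SE 0.12) and -0.01 (SE 0.12). Capzb stayed within 8.56 to 8.70 in all 6 arrays.

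Among 4 tropomyosins, which coat filaments and govern what may bind them, Tpm1 alone separated the genotypes. It read 5.99, 5.92 and 5.98 in wild type and 5.84, 5.64 and 5.85 in the knockout. The difference was -0.19 (SE 0.12, adjusted p = 0.954). The gap between the groups was 0.07. Tpm4 read 6.55, 6.89 and 6.46 against 6.50, 6.60 and 6.55, with both ends of the range in wild type. Tpm2, Tpm3 and Tpm4 overlapped and differed by 0.00 (SE 0.13), -0.04 (SE 0.14) and -0.08 (SE 0.14).

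The linkers of filaments to the membrane, ezrin, radixin and moesin, did not move together. Rdx, the radixin gene, whose product is the main member of this family at bile canaliculi, read 9.26, 9.39 and 9.25 in wild type and 9.53, 9.73 and 9.44 in the knockout. All 3 knockout values were above all wild-type values, at a difference of 0.27 (SE 0.13). Its interval reached from -0.02 to 0.55, with an adjusted p by limma of 0.928. Msn, the moesin gene, known mainly from endothelial and blood cells in this organ, read 7.20, 7.40 and 6.79 against 6.82, 7.18 and 6.90, with overlap and a difference of -0.16 (SE 0.17). Ezr, the ezrin gene of bile duct epithelium, differed by -0.08 (SE 0.14).

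Crosslinkers and adhesion proteins, a group of 5 genes, held differences of both signs. Flna, which encodes filamin A and joins filaments into a mesh, read 6.07, 6.11 and 5.58 in wild type and 5.64, 5.51 and 5.44 in the knockout. Wild-type replicate 3 lay inside the knockout range and the other wild-type arrays above it, and the difference was -0.39 (SE 0.16). The 95% confidence interval was -0.75 to -0.03 and the adjusted p by limma 0.919. Actn4, the alpha-actinin of non-muscle cells, read 9.11, 9.12 and 8.91 against 8.77, 8.85 and 8.70, without overlap, and differed by -0.27 (SE 0.12, adjusted p = 0.920). Its paralog Actn1 differed by -0.00 (SE 0.15).

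The adhesion genes Vcl and Zyx were on the other side. Vcl, which encodes vinculin, read 7.67, 7.63 and 7.85 in wild type and 7.86, 7.94 and 7.89 in the knockout, so that the groups were parted by 0.01, the last digit of the deposited values. Zyx, the zyxin gene, read 6.48, 6.43 and 6.61 against 6.63, 6.68 and 6.68, parted by 0.02. Their differences were 0.18 (SE 0.12) and 0.16 (SE 0.12), with adjusted p of 0.954 and 0.956.

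The smooth muscle SRF targets Tagln, Cnn1 and Myl9 all had lower means in the knockout, with a median difference of -0.32. Tagln, which encodes the filament-binding protein SM22, read 5.54, 5.25 and 5.0 in wild type and 5.04, 4.72 and 5.08 in the knockout. Cnn1, the calponin gene of smooth muscle, read 4.61, 4.27 and 4.23 against 4.27, 3.88 and 4.01. In both genes wild-type replicate 1 was highest and the groups overlapped. The differences were -0.32 (SE 0.17, adjusted p = 0.943) and -0.32 (SE 0.15, adjusted p = 0.935). Without wild-type replicate 1 they were -0.18 and -0.20.

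Myl9, the myosin regulatory light chain of smooth muscle, read 6.26, 6.12 and 6.00 in wild type and 5.89, 5.87 and 5.72 in the knockout. Here the groups did not overlap, and the difference was -0.30 (SE 0.13). Its interval reached from -0.58 to -0.02, with an adjusted p by limma of 0.920. Averaged over Tagln, Cnn1 and Myl9, each centred on its mean over 6 arrays, the wild-type arrays lay at 0.37, 0.12 and -0.02 and the knockout arrays at -0.03, -0.27 and -0.16.

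**Figure D3:**
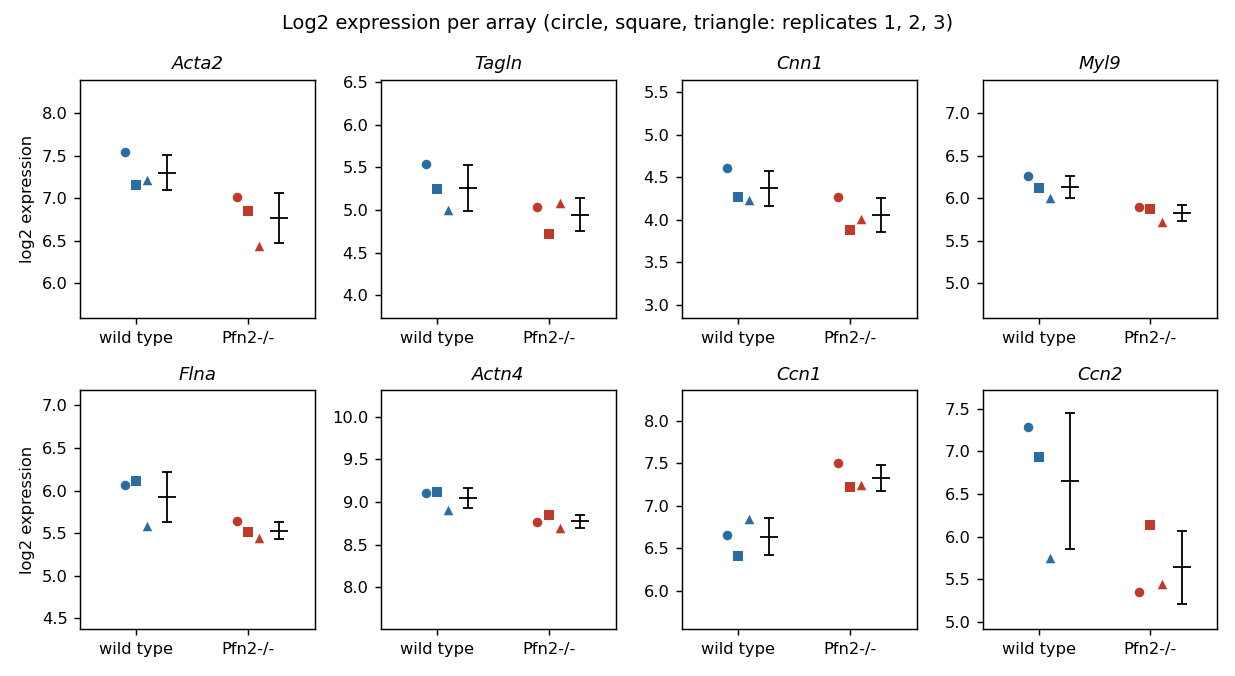
Log2 expression per array of the contractile and crosslinking genes Acta2, Tagln, Cnn1, Myl9, Flna and Actn4 and of the matricellular genes Ccn1 and Ccn2, in wild type (blue) and Pfn2-/- (red); black bars give mean and SD of 3 arrays, and each y axis spans the same width. The knockout values lie below all wild-type values for Acta2, Myl9 and Actn4 and above them for Ccn1, while Ccn2 has a wild-type array at 5.75 among the knockout arrays.

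Markers of the cells that carry contractile genes were read beside them. The list of 8 smooth muscle and pericyte markers had centred means of 0.14, 0.18 and -0.23 in wild type and 0.02, -0.10 and -0.01 in the knockout, with 0 markers below the lower quartile of gene means. Its genes Myh11, Smtn, Lmod1 and Des, named for this overlap, are also on the list of other SRF targets below. This list thus does not measure cell number apart from SRF target expression. The 10 stellate cell markers had 0.18, 0.10 and -0.08 against -0.11, 0.03 and -0.12, and the 8 endothelial markers 0.16, 0.28 and -0.14 against -0.15, 0.05 and -0.19. In all 3 lists wild-type replicates 1 and 2 were the highest 2 arrays, and wild-type replicate 3 lay within or below the knockout range. At an unadjusted p under 0.05, 1 of 8, 1 of 10 and 1 of 8 markers of these lists were lower in the knockout (12.5%, 10% and 12.5%, beside 2.62% of all genes) and 0 were higher (beside 2.67%). Of the cholangiocyte markers, 2 of 6 were higher by that rule and without overlap (33.3%, beside 2.67% and 5.09% of all genes) and 0 lower. These were Sox9 (0.58, SE 0.20) and Cftr (0.33, SE 0.13), named after their values were seen. Cftr was dim, with a mean of 2.81, below the lower quartile of gene means. The rest of that list, named to complete it, differed by -0.10 (Epcam), -0.07 (Krt23), 0.02 (Krt7) and 0.05 (Krt19). The list's centred means overlapped between the genotypes. Summed as mean log2 values, the smooth muscle list spanned 5.42 to 5.82 in wild type and 5.54 to 5.66 in the knockout, the stellate list 6.87 to 7.12 and 6.82 to 6.97, and the endothelial list 7.48 to 7.90 and 7.44 to 7.67. Skeletal muscle markers, 8 genes with 3 of them below the lower quartile, averaged 4.03 to 4.22 in wild type and 4.08 to 4.18 in the knockout. The part of cell composition in the contractile gene values was not tested.

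**Figure D4:**
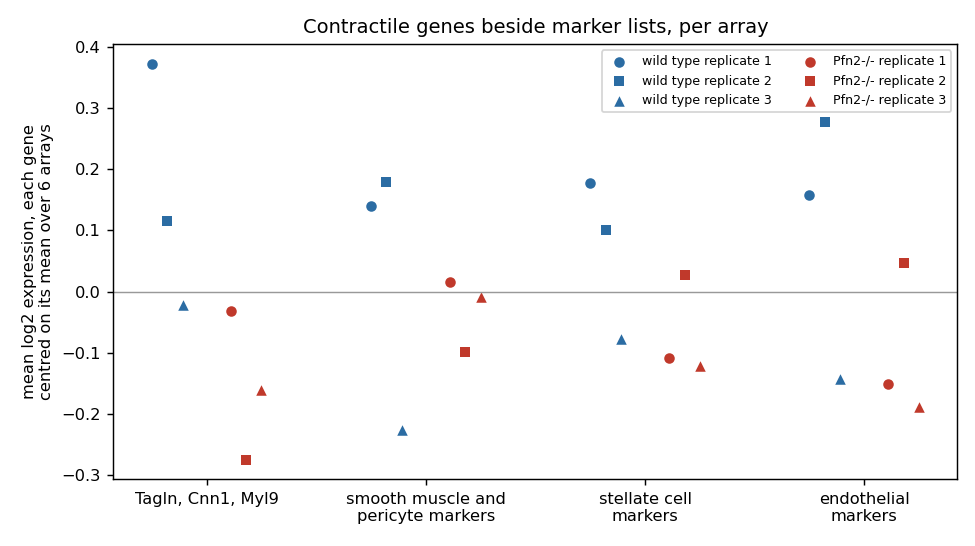
Mean log2 expression per array, each gene centred on its mean over 6 arrays (y axis), of Tagln, Cnn1 and Myl9 and of 3 marker lists; points are arrays, blue for wild type and red for Pfn2-/-, with circle, square and triangle for replicates 1, 2 and 3. Wild-type replicates 1 and 2 are the 2 highest arrays in each column, and wild-type replicate 3 falls to -0.23 in the smooth muscle and pericyte list.

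Ccn1 and Ccn2, secreted matricellular proteins under both SRF and the YAP/TAZ-TEAD pathway, stood on opposite sides. Ccn1 read 6.66, 6.41 and 6.85 in wild type and 7.5, 7.22 and 7.25 in the knockout. All knockout arrays were above all wild-type arrays, by at least 0.37. The means were 6.64 ± 0.22 (SD, n = 3) and 7.32 ± 0.15, which differ by 0.68 (SE 0.15), or 1.61-fold. The 95% confidence interval was 0.35 to 1.02 and the adjusted p by limma 0.644. This was the smallest adjusted p among the 46 genes. Without single arrays the difference stayed between 0.57 and 0.79.

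Ccn2 read 7.28, 6.93 and 5.75 in wild type and 5.35, 6.13 and 5.44 in the knockout. Wild-type replicates 1 and 2 were high, and wild-type replicate 3 lay among the knockout arrays, so the groups overlapped. The means were 6.65 ± 0.80 (SD, n = 3) and 5.64 ± 0.43, which differ by -1.01 (SE 0.35), or 2.02-fold. The 95% confidence interval was -1.81 to -0.22 and the adjusted p by limma 0.895. It was -1.47 without wild-type replicate 3 (adjusted p = 0.141) and -0.70 without wild-type replicate 1. A second, dimmer row of Ccn2 read 4.45, 4.26 and 4.0 against 3.87, 3.74 and 4.19, a difference of -0.30. Fhl2, a LIM-domain cofactor and SRF target, differed by 0.03 (SE 0.18).

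**Figure D5:**
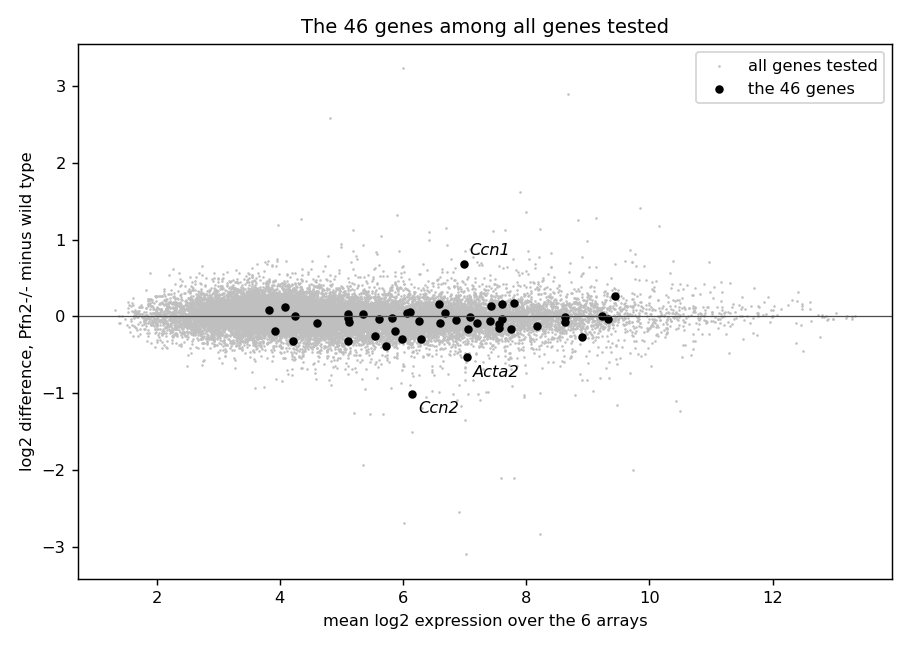
Log2 difference, Pfn2-/- minus wild type (y axis), against mean log2 expression over 6 arrays (x axis) for all 22180 genes tested (grey) and the 46 genes (black). Most of the 46 genes lie near 0, and Ccn1 at 0.68, Acta2 at -0.53 and Ccn2 at -1.01 lie farthest from it, while all genes span -3.10 to 3.23.

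The regulators themselves did not separate the genotypes. Srf read 6.07, 5.97 and 6.10 in wild type and 5.92, 6.07 and 6.27 in the knockout, with means 0.04 apart (SE 0.13). Mrtfa read 5.91, 5.98 and 5.60 against 5.70, 5.57 and 6.15, and Mrtfb read 7.70, 7.42 and 7.74 against 7.52, 7.54 and 7.70. Knockout replicate 3 was the highest of all 6 arrays for Srf and Mrtfa. The differences were -0.02 (SE 0.17) for Mrtfa and -0.03 (SE 0.13) for Mrtfb, and each of the 3 signs turned without some array. These values give RNA only and say nothing of where the coactivators reside in the cell.

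SRF binds a short element called the CArG box, and the promoters show which of these genes carry it close to the start. Windows from 250 bases before to 50 bases after the start were taken from RefSeq (GRCm38.p6), and 40 of the 46 genes had at least 1. Windows were not matched for Actb, Actg2, Ccn2, Coro1b, Tagln and Twf2. The CArG box reads the same on both strands as a pattern. An exact CArG box was found in 6 of 40 genes (15%), namely Actg1, Fhl2, Myl9, Srf, Vcl and Vil1, beside 1.81% of the 27025 genes with windows. By window it was found in 7 of 54, beside 1.63% of all 32851 windows. The 46 include genes chosen as SRF targets, so the choice of genes can itself raise this share. A copy with 1 mismatch was present in 13 of 40 (32.5%) beside 22.5% of all genes. The stretches below, 5′ to 3′ along each gene, are shown because they hold the exact boxes, in capitals:
Srf: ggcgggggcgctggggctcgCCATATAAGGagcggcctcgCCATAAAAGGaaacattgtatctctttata
Actg1: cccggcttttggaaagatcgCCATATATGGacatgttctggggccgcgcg
Vcl: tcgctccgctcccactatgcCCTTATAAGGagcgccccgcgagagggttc
Myl9: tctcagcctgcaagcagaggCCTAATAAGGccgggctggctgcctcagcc
Vil1: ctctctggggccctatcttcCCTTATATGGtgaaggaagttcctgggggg
Fhl2, first start: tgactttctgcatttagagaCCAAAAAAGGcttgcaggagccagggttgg
Fhl2, second start: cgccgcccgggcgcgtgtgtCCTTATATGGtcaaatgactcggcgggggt

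In GRCm38.p6 the Srf stretch is chr17:46556195-46556264 on the minus strand, with boxes that begin 82 and 62 bases before the start. The Actg1 stretch is chr11:120348556-120348605, minus strand, with its box 90 bases before the start. The Vcl stretch is chr14:20929151-20929200, plus strand (227 bases before), and the Myl9 stretch chr2:156775283-156775332, plus strand (161 bases before). The Vil1 stretch is chr1:74409291-74409340, plus strand (73 bases before), and the Fhl2 stretches are chr1:43196828-43196877 (96 bases before) and chr1:43163963-43164012 (31 bases before), both on the minus strand. The 6 genes with an exact box differed by 0.18 (Vcl), 0.04 (Srf), 0.03 (Fhl2), -0.09 (Actg1), -0.20 (Vil1) and -0.30 (Myl9). They thus lay on both sides of 0, and Myl9 alone among them had an unadjusted p under 0.05. It lost that call under 2 of the 3 other scalings. When single arrays were left out, it kept the call only without wild-type replicate 3.

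Acta2 and Ccn1, which had the largest differences among genes without overlap, had no exact box in the window. Sequence outside the window was not searched. Their stretches are shown with CArG boxes of 1 mismatch in capitals for Acta2, and in Ccn1 the TEAD motif GGAATG (here on the opposite strand) and a TATA box (TATAAA), each as marked:
Acta2: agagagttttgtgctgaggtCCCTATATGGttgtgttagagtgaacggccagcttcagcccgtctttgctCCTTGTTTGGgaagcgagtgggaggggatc
Ccn1: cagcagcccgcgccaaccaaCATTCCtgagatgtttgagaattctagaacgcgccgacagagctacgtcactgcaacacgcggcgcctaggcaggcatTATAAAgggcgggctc

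The Acta2 stretch is chr19:34255378-34255477, minus strand, with near-matches that begin 84 and 34 bases before the start. The Ccn1 stretch is chr3:145649995-145650108, minus strand, with the TEAD motif 103 and the TATA box 25 bases before the start. On either strand the TEAD motif was present in 7 of 40 genes (17.5%), namely Acta2, Actn4, Ccn1, Flna, Mrtfb, Tpm1 and Vcl, beside 16.6% of all genes. TATAAA was found on either strand in 3 of 40 (7.5%), namely Ccn1, Fhl2 and Srf, beside 15.7% of all genes, and on the strand of the gene in Ccn1 alone, beside 9.77% of all genes. A match describes the letters in this window and shows no binding.

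Other genes of the pathways were read from lists of names. Of 39 measured genes of filament turnover beyond the 46 (of 44 listed), 0 had an unadjusted p under 0.05 in either direction (beside 2.67% of all genes higher and 2.62% lower), and their median difference was -0.03. A list of 28 other targets of SRF and its coactivators also held Myocd, itself a coactivator gene. Of these 28 genes, 0 were higher and 3 lower by that rule, or 10.7% lower beside 2.62% of all genes, with a median of -0.01. The 3 lower genes were the non-muscle myosin gene Myh9 (-0.30, SE 0.13), the smooth muscle myosin gene Myh11 (-0.41, SE 0.16) and the LIM-domain gene Fhl1 (-0.35, SE 0.14), named after their values were seen. Myh11, like Smtn, Lmod1 and Des, is also on the smooth muscle marker list. It is the 1 marker counted as lower there, so the 2 counts share this gene. Myh11 read 6.12, 6.03 and 5.60 in wild type and 5.68, 5.45 and 5.38 in the knockout, so wild-type replicate 3 again lay among the knockout arrays.

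The other arm of SRF acts with ternary complex factors on immediate early genes. Its list of 13 measured genes held such genes and also the ternary complex factor genes Elk1, Elk3 and Elk4 themselves. Of the 13, 0 were higher or lower by that rule (beside 2.67% and 2.62% of all genes), and their median was -0.05. Of 27 measured genes of the YAP/TAZ-TEAD pathway (of 28 listed), 0 were higher and 1 was lower by that rule, or 3.70% lower beside 2.62% of all genes, with a median of -0.06. This list mixes regulators of the pathway with its targets, and it leaves out Ccn1 and Ccn2, which are given above. The lower gene was the receptor kinase gene Axl (-0.29, SE 0.12), named after its values were seen. Its values of 6.87, 6.96 and 6.78 in wild type lay above 6.62, 6.63 and 6.48 in the knockout. In none of these 4 lists did a gene reach an adjusted p under 0.05 by limma over all genes.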

How the data were processed

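RNA of 6 livers was labelled with the GeneChip WT PLUS kit, per the labels. The authors deposited log2 expression values made by RMA, per the submitters' processing notes, which also name limma. RMA subtracts background, equalises array distributions and summarises probes, so it hides shifts common to all genes and shrinks differences of dim rows. Probe set level, tool versions and build are not stated in these sources, and arrays have no read depth.

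Of 34390 rows, 23521 carried exactly 1 gene symbol in the platform annotation, 1814 several and 9055 none listed. The brightest row per gene gave 22180 genes. Genotype was fitted with limma 3.58.1 (R 4.3.3, lmFit and eBayes, two-sided, Benjamini-Hochberg over all genes, threshold 0.05), after tests on simulated data. The 46 genes and the lists were chosen with earlier results of these data known. All 46 are named. Values by array are given for genes with an unadjusted p under 0.05 or groups apart, for 10 central genes, and for up to 2 per role with the largest absolute difference. Other listed genes are named at an unadjusted p under 0.01, which Saa3 (1.16, SE 0.32) and Hsp90aa1 (0.40, SE 0.12) met, of the acute-phase and heat shock lists; exceptions are marked. Lists of hepatocyte, portal fibroblast and mesothelium, Kupffer cell, lymphocyte, neutrophil, cholangiocyte, pancreas and adipocyte markers had mean levels that overlapped between the genotypes, and red blood cell markers had 0 measured genes. Promoter windows came from RefSeq, GRCm38.p6.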

Additional observations from a re-analysis of the deposited data

How the results depend on the processing

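Alternatives were 3 other scalings, the mean of a gene's rows, 2 filters on dim genes, trend and robust variance, array weights, a block for replicate number, and the omission of single arrays. None of the 46 genes passed the adjusted threshold under any of these 16 settings. Over all genes the count was 0, but 2 with array weights, 7 with the replicate block and 0 to 6 without single arrays. Same-numbered arrays of the genotypes had the same age. Their deviations correlated at -0.08, 0.15 and 0.02 across all genes and at 0.02, 0.35 and 0.14 across the 46. Not every array matched its own number best. With 3 arrays per genotype, these correlations cannot show whether the arrays were paired. The block left the counts of the 46 genes at an unadjusted p under 0.05 at 1 higher and 5 lower, but Cnn1 passed in place of Actn4. Higher ones were 2 with eBayes trend and 1 to 2 without single arrays, and lower ones 0 to 6. Groups lying apart numbered 5 to 7 above and 7 to 11 below without single arrays (10.9% to 15.2% and 15.2% to 23.9%), where all genes gave 8.61% to 11.5% and 8.77% to 11.2%. Repeated quantile normalization gave 4 below. The median difference was -0.10 to -0.021 without single arrays. The cause of these moves was not tested.

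Signs held in 26 genes under every setting that tested them, which was 15 for Cap2, Vil1 and Cnn1, too dim for the stricter filter, and 16 for the others. Some of these still moved without single arrays: Actb -0.255 to -0.025, Gsn -0.37 to -0.11, Vil1 -0.31 to -0.017, Coro1c -0.43 to -0.17, Msn -0.33 to -0.028, Cap1 -0.16 to -0.067 and Cap2 0.03 to 0.31. With median centring Actn1 was 0.0033. With repeated quantile normalization Cfl2 was -0.0031, Capzb 0.0025, Tpm2 -0.0094, Actn1 0.0197 and Mrtfa 0.015, and with cyclic loess Tpm2 was -0.0153, Actn1 0.0221 and Mrtfa 0.0081. With the mean of rows Mrtfb was 0.015. With array weights Tmsb10 was 0.0042, Capzb 0.0073, Tpm2 -0.0420 and Actn1 0.0797. Other rows gave 0.0567 for Actg1, 0.18 for Coro1c, 0.0933 for Msn and 0.0633 for Mrtfb. Without single arrays the ranges were -0.34 to 0.16 (Actg1), -0.025 to 0.24 (Actg2), -0.062 to 0.068 (Cfl2), -0.14 to 0.025 (Twf2), -0.077 to 0.16 (Coro1a), -0.11 to 0.013 (Limk1), -0.18 to 0.05 (Limk2), -0.0067 to 0.12 (Ssh1), -0.11 to 0.20 (Tmsb4x) and -0.12 to 0.16 (Tmsb10). They were -0.048 to 0.022 (Capzb), -0.093 to 0.062 (Tpm2), -0.16 to 0.04 (Tpm3), -0.17 to 0.045 (Tpm4), -0.16 to 0.025 (Ezr), -0.11 to 0.075 (Actn1), -0.11 to 0.21 (Fhl2), -0.052 to 0.12 (Srf), -0.20 to 0.10 (Mrtfa) and -0.13 to 0.027 (Mrtfb).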
